A study of Homo sapiens with 14 samples.

Results

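The 37 genes described here belong to the hypoxia response and to glycolysis, and were matched by Ensembl identifier among the 62757 genes of each count file. They comprise 3 subunits of the hypoxia-inducible factors (HIF), 2 prolyl hydroxylases, 2 carbonic anhydrases, 3 secreted proteins, 4 other HIF targets, 2 mitophagy receptors, 2 glucose transporters, 2 hexokinases, 14 further enzymes of glycolysis and its regulation, and 3 genes of lactate and pyruvate handling. All 37 passed the filter on low counts in every comparison. The rule names the genes and uses no measured value, but the members were chosen with earlier results of these data known.

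The series holds 14 RNA-seq libraries in 7 groups of 2, made from lines labelled A2780 or OVCAR3, both established from human ovarian cancer, for a study of RNA editing in resistance to cisplatin. The series text describes the cells labelled DDP as derivatives resistant to that drug. The groups labelled OVCAR3-DDP-sh1 and OVCAR3-DDP-sh2 carry short hairpin RNAs against ADAR1, an RNA-editing enzyme, in OVCAR3 cells labelled DDP, and are called sh1 and sh2. OVCAR3-DDP-shNC, whose genotype label reads shNC, is called shNC here and is the group both are set against. The remaining groups are OVCAR3-DDP and parental OVCAR3 (WT), and A2780-DDP and parental A2780 (WT), none of which is labelled with a hairpin. The labels give no oxygen level, cisplatin dose, culture time or clone number, nor whether the 2 replicates of a group came from different cultures. The p-values therefore reflect the spread among the libraries at hand, which may be technical.

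HIF is a pair of proteins, an oxygen-labile alpha subunit and the stable partner ARNT. When oxygen is present, prolyl hydroxylases mark the alpha subunit for destruction, so HIF activity is set mainly at the protein level and the HIF1A messenger alone is a poor readout of it. When oxygen falls, HIF binds the short sequence ACGTG or GCGTG near its target genes and raises glucose uptake, glycolysis, lactate export and acid handling, while PDK1 holds pyruvate back from the mitochondria. Many solid tumours and tumour cell lines run a high rate of glycolysis.

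The HIF core sequence is shown for 5 members because their promoters carry it and because, set against parental OVCAR3, their levels in shNC range from little changed (LDHA) to many times higher (ANKRD37). The sequences are the 250 bases before the gene start in RefSeq (GRCh38.p14), 5′ to 3′ on the strand of the gene. Capitals mark every ACGTG or GCGTG and the same motifs read on the opposite strand (CACGT and CACGC), including overlaps. They are CA9 (chr9:35673678-35673927, plus strand), ANKRD37 (chr4:185396591-185396840, plus strand), BNIP3 (chr10:131981924-131982173, minus strand), PGK1 (chrX:78103998-78104247, plus strand) and LDHA (chr11:18394313-18394562, plus strand).
CA9: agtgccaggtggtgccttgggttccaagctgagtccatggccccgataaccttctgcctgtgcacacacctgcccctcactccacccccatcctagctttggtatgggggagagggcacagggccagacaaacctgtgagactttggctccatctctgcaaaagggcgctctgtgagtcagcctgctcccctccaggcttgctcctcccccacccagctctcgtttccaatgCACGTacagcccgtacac
ANKRD37: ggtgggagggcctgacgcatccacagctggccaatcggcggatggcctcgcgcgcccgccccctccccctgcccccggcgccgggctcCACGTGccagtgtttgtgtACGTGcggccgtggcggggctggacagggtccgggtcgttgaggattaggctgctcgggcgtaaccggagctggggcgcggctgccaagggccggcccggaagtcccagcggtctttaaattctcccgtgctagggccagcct
BNIP3: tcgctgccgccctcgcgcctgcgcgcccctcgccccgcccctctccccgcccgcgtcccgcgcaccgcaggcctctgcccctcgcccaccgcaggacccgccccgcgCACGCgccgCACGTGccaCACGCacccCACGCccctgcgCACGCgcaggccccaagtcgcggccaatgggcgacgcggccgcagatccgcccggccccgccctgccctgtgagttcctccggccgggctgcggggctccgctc
PGK1: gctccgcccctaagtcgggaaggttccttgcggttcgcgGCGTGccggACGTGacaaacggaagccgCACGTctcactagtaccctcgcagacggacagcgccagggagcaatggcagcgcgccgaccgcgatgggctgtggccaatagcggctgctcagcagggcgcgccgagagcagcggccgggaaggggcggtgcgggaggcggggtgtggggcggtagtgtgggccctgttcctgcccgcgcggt
LDHA: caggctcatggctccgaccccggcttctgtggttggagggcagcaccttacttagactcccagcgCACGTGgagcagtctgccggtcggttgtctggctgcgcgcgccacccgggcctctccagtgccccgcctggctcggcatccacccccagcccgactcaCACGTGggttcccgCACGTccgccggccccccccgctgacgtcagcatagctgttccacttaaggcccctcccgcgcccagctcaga
Matches to ACGTG on either strand numbered 1 in CA9, 3 in ANKRD37, 2 in BNIP3, 2 in PGK1 and 5 in LDHA, and a CACGTG holds a match on each strand. The match in CA9 began 18 bases before the gene start.

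A RefSeq promoter was matched for 33 of the 37 members, and NDRG1, VEGFA, SLC2A3 and BNIP3L are the other 4. ACGTG stood in at least 1 promoter of 19 of the 33 (57.6%), against 21.7% of the 27305 genes in the table. ACGTG or GCGTG stood in 28 of the 33 (84.8%), against 47.4% of genes. Members may have several listed starts, and counted by start the share with ACGTG was 22 of 55 (40.0%), against 18.5% of 35116. No allowance was made for base composition, and a match describes letters and not a bound site.

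The libraries were checked before the members were read. ADAR was lower than in shNC by log2 −0.71 with sh1 (SE 0.11; edgeR adjusted p = 0.00123) and by log2 −1.99 with sh2 (SE 0.11; edgeR adjusted p = 2.07e-09), in all 4 libraries. The libraries labelled OVCAR3-DDP stood apart from the other OVCAR3 libraries: KRT7, an epithelial keratin, had 13 and 4 counts there, against 40704 and 50597 in parental OVCAR3, whereas both shNC libraries kept it at 22868 and 24087. EN2, a neural homeobox gene, reached 178 and 183 CPM (counts per 1000000 assigned) in them and had 0 counts in parental OVCAR3. The A2780 libraries also had little KRT7 (0 to 2 counts) and held some EN2 (221 to 348 counts). Over 11 epithelial and ovarian carcinoma markers the sum in these 2 libraries was 539 to 575 CPM, against 3932 to 4329 CPM in parental OVCAR3. Of the 10 tested, 9 were lower there and 1 was higher, and the keratin KRT8 kept 13411 and 14401 counts, against 53520 and 66495. The 10 neuronal and HEK293-type markers summed to 489 to 497 CPM there, against 4.23 to 4.54 CPM in parental OVCAR3, with 8 of the 10 at 0 in parental cells. Of the 8 tested, 6 were higher there and 2 were lower. The lower ones were INA (1 and 8 counts, against 67 and 64) and TUBB3 (20 and 21 counts, against 96 and 144). In the A2780 libraries the 11 epithelial markers summed to 198 to 306 CPM and these 10 markers to 162 to 392 CPM. Every comparison with these libraries sets cells of unlike markers against each other, and the DDP label and that difference cannot be told apart in them. The 6 hairpin libraries kept the epithelial markers, at 3894 to 5144 CPM, but had fewer assigned counts (20428538 to 23746370, against 31195174 to 49115255 in the other 8), more reads aligned to several places (4.64% to 4.99%, against 2.36% to 3.22%) and less mitochondrial messenger RNA (0.726% to 0.947% of counts, against 2.31% to 3.51%). In bulk samples fewer expressing cells and less RNA per cell cannot be told apart.

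The hairpin libraries held far more hypoxia and glycolysis RNA than any other library. The 37 members made up 3.17% to 3.93% of all assigned counts in the 6 hairpin libraries, against 0.771% to 1.5% in the 8 others. For 30 of the 37 members every hairpin library lay above every other library. Over the 17237 genes with a mean of at least 1 CPM, 9.42% showed that separation. The 7 exceptions were ARNT, CA12, PFKL, PFKFB3, PGAM1, LDHA and SLC16A3. The shNC group had the highest mean of the 7 groups for 27 members, and the libraries labelled OVCAR3-DDP had the lowest for 17. The order of group means was not counted over all genes, so these 2 counts have no background share.

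**Figure D1:**
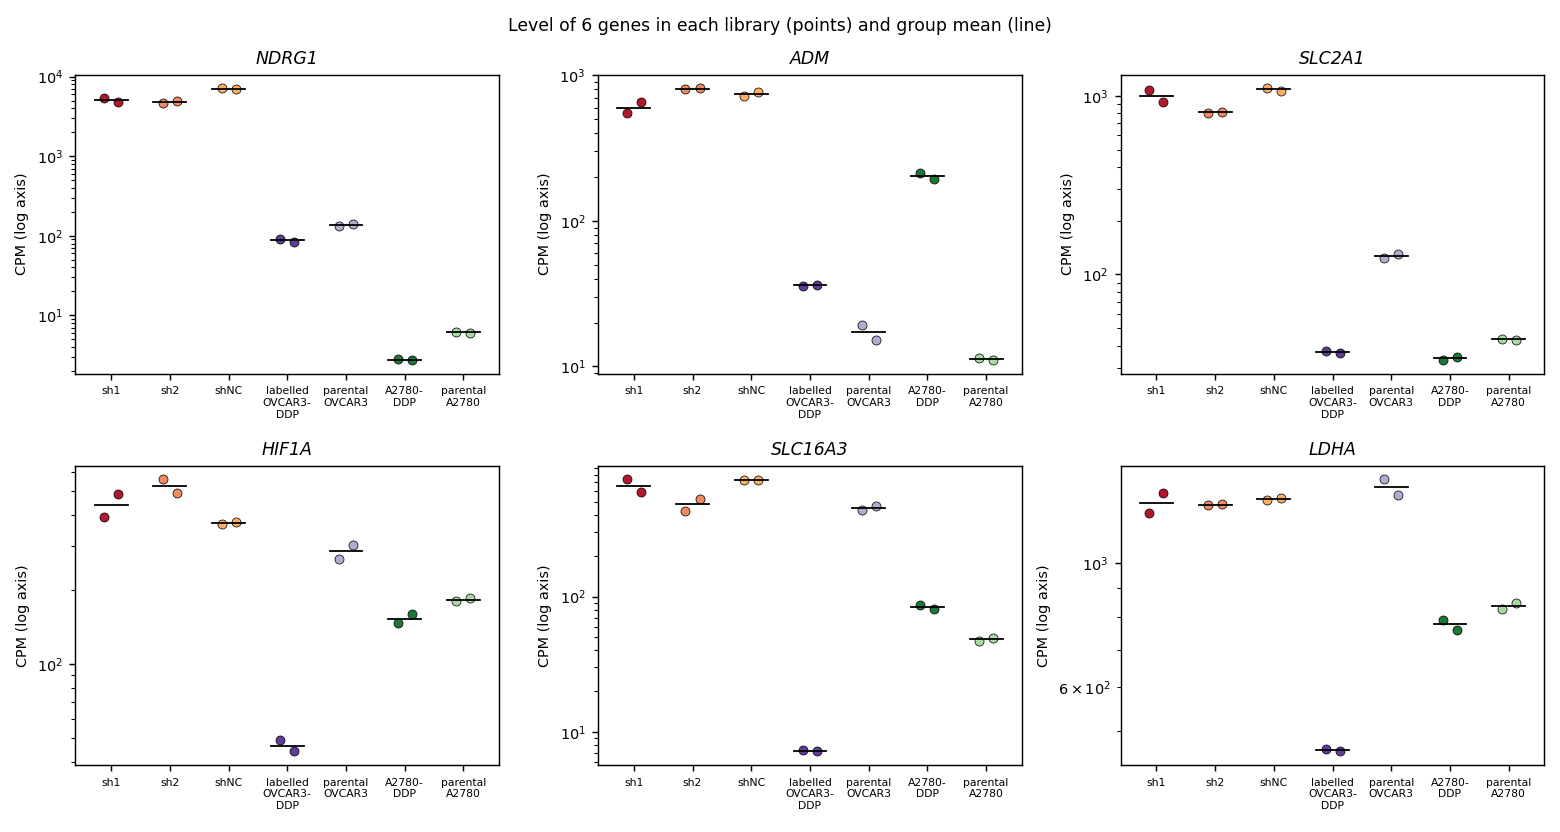
Counts per 1000000 assigned reads (CPM, log axis) of 6 members in each of the 14 libraries, drawn as points with the group mean as a line. NDRG1, ADM and SLC2A1 stand highest in the hairpin libraries, ADM is also raised in A2780-DDP over parental A2780, and SLC16A3 and HIF1A are lowest in the libraries labelled OVCAR3-DDP.

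Set against parental OVCAR3, the line whose epithelial markers it shares, shNC showed higher levels of 36 of the 37 members and a lower level of none, by edgeR's quasi-likelihood test at an adjusted p under 0.05. Of all 24193 genes tested, 25.1% passed as higher and 26.5% as lower. The median member differed by log2 2.21, a 4.62-fold difference, while the median of all genes was 0, and 25 members passed with a difference of at least 2-fold, as did 27.6% of genes in either direction. The comparison joins the DDP label, the hairpin vector and the library differences given above, and these cannot be told apart. Of 10 tested epithelial and ovarian carcinoma markers 5 were higher in shNC and 0 lower. Markers of other cell types moved too: of 8 tested neuronal and HEK293-type markers 6 were higher, with the list of 10 summing to 11.3 and 12.8 CPM in shNC against 4.54 and 4.23 CPM in parental OVCAR3, and both tested endothelial markers were lower. Their part in the result was not tested.

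The largest differences were in genes often used as readouts of HIF. NDRG1, a stress-response gene on chromosome 8 (ENSG00000104419.17, 133237171 to 133302022, minus strand, GRCh38), had 7165 and 6993 CPM in shNC, against 131 and 141 CPM in parental OVCAR3, a log2 change of 5.89 (SE 0.12; edgeR adjusted p = 1.59e-21). Per kilobase of exon it was the second most abundant member in shNC after GAPDH, at 721 against 2610 CPM per kilobase. ANGPTL4 (ENSG00000167772.12, chromosome 19), a secreted regulator of lipoprotein lipase, stood at 148 and 153 CPM in shNC, against 2.51 and 2.02 CPM in parental cells (log2 6.26, SE 0.16). ADM (ENSG00000148926.10, chromosome 11), which encodes the vasodilator peptide adrenomedullin, reached 717 and 766 CPM in shNC, against 19.3 and 15.1 CPM (log2 5.62, SE 0.14). In each of these 3 genes, chosen for their large change, both shNC libraries exceeded both parental libraries many times over. VEGFA, the angiogenic growth factor, was also higher in shNC, at 604 and 564 CPM against 125 and 155 CPM (log2 2.25, SE 0.12).

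Other HIF targets rose with them. ANKRD37, an ankyrin-repeat gene, had 167 and 166 CPM in shNC and 6.69 and 5.90 CPM in parental OVCAR3 (log2 4.92, SE 0.15). Of its exon length 35.2% is shared with UFSP2 on the opposite strand, and whether reads were counted by strand is not given in the sources used here. KDM3A, a histone demethylase, and P4HA1, a collagen prolyl hydroxylase, rose by log2 2.19 (SE 0.11) and 1.88 (SE 0.12). Both mitophagy receptors rose: BNIP3 had 572 and 550 CPM in shNC against 87.6 and 86.5 CPM (log2 2.88, SE 0.11), and BNIP3L 258 and 244 CPM against 55.4 and 54.0 CPM (log2 2.39, SE 0.11). The levels of the 2 shNC libraries lay close together and clear of the parental ones in all 5 genes. All 5 passed, so the separation adds no support.

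The oxygen sensors and the acid-handling enzymes showed unequal changes within each pair. EGLN3, a prolyl hydroxylase that is itself a HIF target, had 169 and 172 CPM in shNC and 13.2 and 11 CPM in parental cells (log2 4.01, SE 0.13), whereas EGLN1, the main HIF prolyl hydroxylase, had 51.1 and 54.6 CPM against 33.3 and 31.0 CPM (log2 0.91, SE 0.12). CA9 (ENSG00000107159.14), the tumour-associated carbonic anhydrase at the cell surface, had 584 and 614 CPM in shNC and 140 and 107 CPM in parental OVCAR3 (log2 2.47, SE 0.12). Its exons share 38.5% of their length with ARHGEF39 on the opposite strand. CA12, a related membrane enzyme, was scarce in both, at 16.7 and 14.5 CPM against 0.892 and 1.08 CPM (log2 4.16, SE 0.20).

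The HIF subunits themselves moved little by comparison. HIF1A (ENSG00000100644.17, chromosome 14) had 368 and 377 CPM in shNC, against 267 and 304 CPM in parental OVCAR3 (log2 0.57, SE 0.11; edgeR adjusted p = 0.000102). EPAS1, which encodes HIF-2 alpha, had 243 and 231 CPM against 139 and 183 CPM (log2 0.75, SE 0.12), and ARNT had 114 and 107 CPM against 68.4 and 81.6 CPM (log2 0.75, SE 0.11). The shNC libraries lay above the parental ones for all 3 genes, with the parental replicates further apart than the shNC ones. All 3 passed, so the separation adds no support.

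Both glucose transporters were much higher in shNC. SLC2A1 (GLUT1) had 1104 and 1068 CPM, against 124 and 129 CPM in parental OVCAR3 (log2 3.29, SE 0.11), and SLC2A3 (GLUT3) had 894 and 898 CPM, against 42.3 and 42.4 CPM (log2 4.59, SE 0.11). HK2, the inducible hexokinase that traps glucose in the cell, had 831 and 759 CPM against 86.2 and 96.7 CPM (log2 3.31, SE 0.13), while the widely expressed HK1 had 414 and 387 CPM against 206 and 193 CPM (log2 1.20, SE 0.10). SLC2A3 has a near-identical neighbour, SLC2A14, so reads of the 2 genes may be split or discarded.

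Below the hexokinase step the differences were uneven. PFKFB4 and PFKFB3, which make the allosteric activator fructose-2,6-bisphosphate, rose by log2 3.05 (SE 0.15) and 2.43 (SE 0.13). ALDOC, the brain-type aldolase, had 225 and 216 CPM in shNC against 29.9 and 29.8 CPM (log2 3.08, SE 0.12), and ENO2, the neuronal enolase, had 465 and 388 CPM against 61.4 and 75.5 CPM (log2 2.83, SE 0.13). ENO1, the abundant enolase, differed less, with 3328 and 3456 CPM in shNC against 2580 and 2415 CPM, which is log2 0.63 (SE 0.09).

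Among the remaining glycolytic enzymes GAPDH rose by log2 1.68 (SE 0.09), PGK1 by 1.63 (SE 0.09), GPI by 1.21 (SE 0.10), TPI1 by 0.91 (SE 0.09), PKM by 0.78 (SE 0.09), PFKL by 0.69 (SE 0.12) and PFKP by 0.65 (SE 0.11). PGAM1, phosphoglycerate mutase, had the smallest passing difference, log2 0.30 (SE 0.10; edgeR adjusted p = 0.0171). Its call was lost without shNC replicate 1, shNC replicate 2 or parental OVCAR3 replicate 2, with log2 0.33, 0.26 and 0.16. ALDOA rose by log2 2.33 (SE 0.16) but was counted at only 34.7 and 34.1 CPM in shNC against 6.47 and 9.12 CPM. Since 53.5% of its exon length overlaps other annotated genes, 1 of them on the same strand, its level is uncertain. GAPDH, PGK1, PGAM1, ENO1 and LDHA have many processed copies in the genome, and reads shared with them may be missing from the counts.

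At the end of the pathway the genes parted. PDK1, which inhibits pyruvate dehydrogenase, had 121 CPM in both shNC libraries against 29.4 and 30.4 CPM (log2 2.21, SE 0.12), and SLC16A3 (MCT4, ENSG00000141526.18), the lactate exporter, had 733 and 730 CPM against 439 and 465 CPM (log2 0.89, SE 0.12). LDHA (ENSG00000134333.15), lactate dehydrogenase A and a textbook HIF target, had 1295 and 1306 CPM in shNC and 1408 and 1321 CPM in parental OVCAR3. After TMM scaling its difference was log2 0.12 (SE 0.09; edgeR adjusted p = 0.282), so that its sign differed from that of the CPM values, and the adjusted p ran from 0.0351 to 0.728 over the alternatives tried. LDHA was the only member that did not pass.

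**Figure D2:**
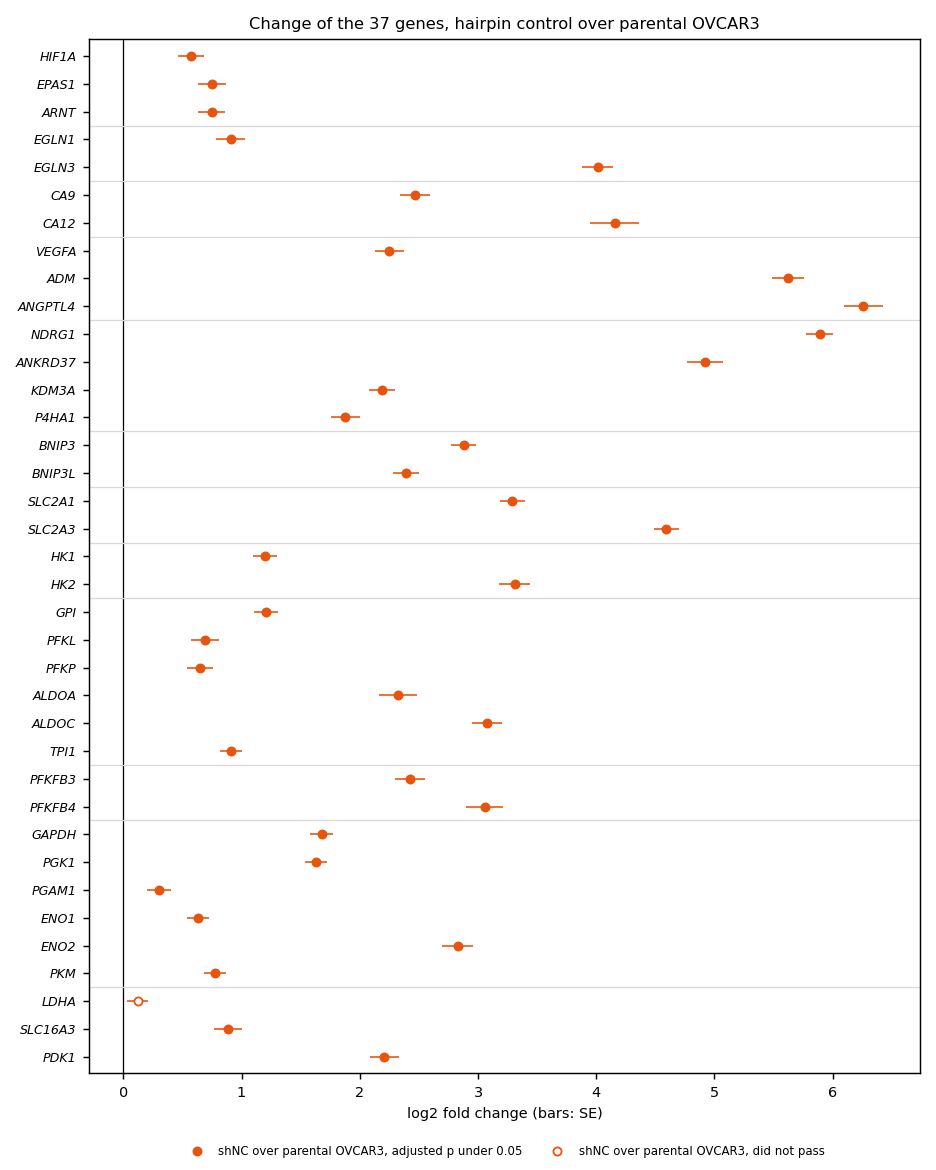
Log2 fold change of each of the 37 members, shNC over parental OVCAR3, with bars for the standard error and grey lines between functional groups. Filled points passed at an adjusted p under 0.05, and LDHA, the open point, did not. The values run from 0.12 for LDHA to 6.26 for ANGPTL4.

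Members with ACGTG in a promoter window had a median log2 difference of 2.21 between shNC and parental OVCAR3 (19 genes, 0.12 to 6.26), and those without it 0.99 (14 genes, 0.30 to 5.62). The ranges overlapped almost entirely, and ADM, without ACGTG in its window, changed nearly as much as ANGPTL4, which has it.

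Other genes of these pathways, in lists also chosen with earlier results known, were read in the same comparison. Of 40 other hypoxia response genes, 31 rose and 3 fell, with a median of log2 1.96. HILPDA, a lipid-droplet protein induced by hypoxia, had 482 and 511 CPM in shNC against 15.0 and 12.9 CPM (log2 5.35, SE 0.13). INHBA (an activin subunit) and SLC2A14 rose by log2 5.44 (SE 0.26) and 7.21 (SE 0.42). SLC2A14 had only 3 and 5 counts in parental OVCAR3, and its reads may be shared with the near-identical SLC2A3, so its value is uncertain. Those that fell included TFRC, the transferrin receptor (log2 −1.84, SE 0.11), and VHL, which encodes the ligase that recognises hydroxylated HIF (log2 −0.51, SE 0.14). KCTD11 had 0 counts in both shNC libraries against 783 and 1137 counts in parental OVCAR3. It also had 0 counts in every sh1 and sh2 library, and 387 to 2115 counts in the libraries without a hairpin. The cause of these 0 counts was not tested. Of 21 tested genes among the other glycolysis and lactate genes, 4 rose and 7 fell, with a median of log2 −0.12, against 25.1% higher and 26.5% lower over all genes. SLC16A1 (MCT1), a lactate transporter, had 55.9 and 55.5 CPM in shNC against 235 and 210 CPM (log2 −1.81, SE 0.10), and LDHB fell by log2 0.65 (SE 0.16). Of 12 genes of pyruvate entry to mitochondria 3 rose and 5 fell, and of 14 genes of glycogen and glucose side branches 7 rose and 2 fell, among them the glycogen genes PPP1R3C (log2 2.37, SE 0.17) and GBE1 (log2 1.71, SE 0.11) as higher.

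Within the hairpin libraries, the ADAR1 hairpins went with modestly lower levels of many members. Averaged over sh1 and sh2 and set against shNC, 22 members fell and 0 rose, against 5.98% of 19044 genes lower and 5.94% higher. The median member was at log2 −0.32, and no member reached a 2-fold difference. The members' sum was 34212 and 32428 CPM in sh1 and 31707 and 32284 CPM in sh2, against 38849 and 39306 CPM in shNC, so all 4 ADAR1-hairpin libraries lay below both shNC libraries. All 4 lay below both shNC libraries for 21 of the 37 members (9.33% of 17237 genes) and above both for 1, HIF1A (24.2% of genes), on the scale of CPM. The epithelial and ovarian carcinoma markers fell too. They summed to 4206 and 3894 CPM in sh1 and 4201 and 4214 CPM in sh2, against 4838 and 5144 CPM in shNC. Of the 9 tested, 6 were lower and 0 higher for the mean of the hairpins, with a median of log2 −0.30. The decrease was thus not particular to the members, and the part of these markers in the results was not tested.

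NDRG1 had 5427 and 4771 CPM in sh1 and 4631 and 4973 CPM in sh2, against 7165 and 6993 CPM in shNC, a log2 change of −0.61 for the mean of the hairpins (SE 0.08; edgeR adjusted p = 8.68e-05). CA9 had 388 and 374 CPM in sh1 and 429 and 445 CPM in sh2, against 584 and 614 CPM in shNC (log2 −0.64, SE 0.09; edgeR adjusted p = 0.000182). Neither gene's groups overlapped, but both genes were chosen because they passed, so the separation adds no support. Even the lowest ADAR1-hairpin library kept both genes far above parental OVCAR3. CA12 was also lower, at 10.3 and 9.32 CPM in sh1 and 12.2 and 10.7 CPM in sh2, against 16.7 and 14.5 CPM in shNC (log2 −0.65, SE 0.14), but its call was lost without either shNC library.

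Among the glycolytic genes, ALDOC, PFKFB4 and ENO2 had the lowest log2 values. ALDOC had 174 and 144 CPM in sh1 and 147 and 145 CPM in sh2, against 225 and 216 CPM in shNC (log2 −0.63, SE 0.10). ENO2 had 361 and 308 CPM in sh1 and 242 and 283 CPM in sh2, against 465 and 388 CPM (log2 −0.62, SE 0.10). PFKFB4 had 99.2 and 70.7 CPM in sh1 and 61.2 and 71.5 CPM in sh2, against 118 and 99.6 CPM (log2 −0.63, SE 0.12), and sh1 replicate 1 came within 1 CPM of the lower shNC library; the call was lost without shNC replicate 1. PFKL, the liver-type phosphofructokinase, fell by log2 0.56 (SE 0.11) and GPI, which converts glucose-6-phosphate to fructose-6-phosphate, by 0.54 (SE 0.08). The other 14 members that fell, by log2 0.26 to 0.49, were EGLN3, VEGFA, ANGPTL4, ANKRD37, SLC2A1, SLC2A3, HK2, TPI1, PFKFB3, GAPDH, PGK1, ENO1, PKM and SLC16A3, and each of these 14 lost its call when some 1 of the sh2 or shNC libraries was left out. The 14 glycolytic enzymes from hexokinase to pyruvate kinase together held 20906 and 19728 CPM in sh1 and 19298 and 19354 CPM in sh2, against 22842 and 23518 CPM in shNC.

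Further members did not pass for the mean of the hairpins. LDHA had 1229 and 1329 CPM in sh1 and 1268 and 1271 CPM in sh2, against 1295 and 1306 CPM in shNC (log2 −0.12, SE 0.08; edgeR adjusted p = 0.352). HIF1A ran the other way, at 392 and 488 CPM in sh1 and 558 and 493 CPM in sh2, against 368 and 377 CPM in shNC. It passed with sh2 alone (log2 0.39, SE 0.11; edgeR adjusted p = 0.0275), a call lost without any 1 of the sh2 or shNC libraries (log2 0.30 to 0.48), and did not for sh1 (log2 0.16, SE 0.11; edgeR adjusted p = 0.462) or the mean (log2 0.28, SE 0.10; edgeR adjusted p = 0.0754). EPAS1 was at log2 −0.17 for the mean (SE 0.10; edgeR adjusted p = 0.266), and ARNT, EGLN1, ADM, KDM3A, P4HA1, both mitophagy receptors, HK1, PFKP, ALDOA, PGAM1 and PDK1 did not pass for the mean. Of these, ADM passed as lower with sh1 alone and ALDOA with sh2 alone, and for ARNT, BNIP3 and ALDOA all 4 ADAR1-hairpin libraries lay below both shNC libraries in CPM.

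Read separately, 12 members were lower with sh1 (1.85% of genes) and 0 higher (1.96%), and 19 were lower with sh2 (7.04% of genes) and 1 higher (7.23%). The hairpins were set against each other directly: sh2 was lower than sh1 for 3 members (1.25% of genes) and higher for 1 (0.667%). VEGFA had 399 and 453 CPM in sh2 against 646 and 522 CPM in sh1 (log2 −0.49, SE 0.11; edgeR adjusted p = 0.0308), ANGPTL4 107 and 109 CPM against 145 and 141 CPM (log2 −0.44, SE 0.11; edgeR adjusted p = 0.0468), SLC16A3 433 and 529 CPM against 737 and 591 CPM (log2 −0.49, SE 0.12; edgeR adjusted p = 0.034) and ADM 807 and 817 CPM against 551 and 651 CPM (log2 0.40, SE 0.10; edgeR adjusted p = 0.0496). The 2 groups did not overlap in any of these 4 genes, which were chosen because they passed, so the separation adds no support. ADAR itself was lower in sh2 than in sh1 by log2 −1.27 (SE 0.11).

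These hairpin counts rested on single libraries. Without shNC replicate 1 or replicate 2 the mean of the hairpins left 8 members called, and without sh2 replicate 1 it left 10, while it gave 30 without sh1 replicate 1 and 31 without sh1 replicate 2. ALDOC, CA9, ENO2, GPI, NDRG1 and PFKL passed under every alternative tried for the mean other than the threshold of 2-fold. For sh1 the count was 4 and 3 without shNC replicate 1 and 2 and 26 without sh1 replicate 1. For sh2 it was 4 and 12 without sh2 replicate 1 and 2, and 11 without shNC replicate 2. No member differed between sh2 and sh1 without sh2 replicate 1 or without sh2 replicate 2, and 7 and 18 did without sh1 replicate 1 and 2.

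**Figure D3:**
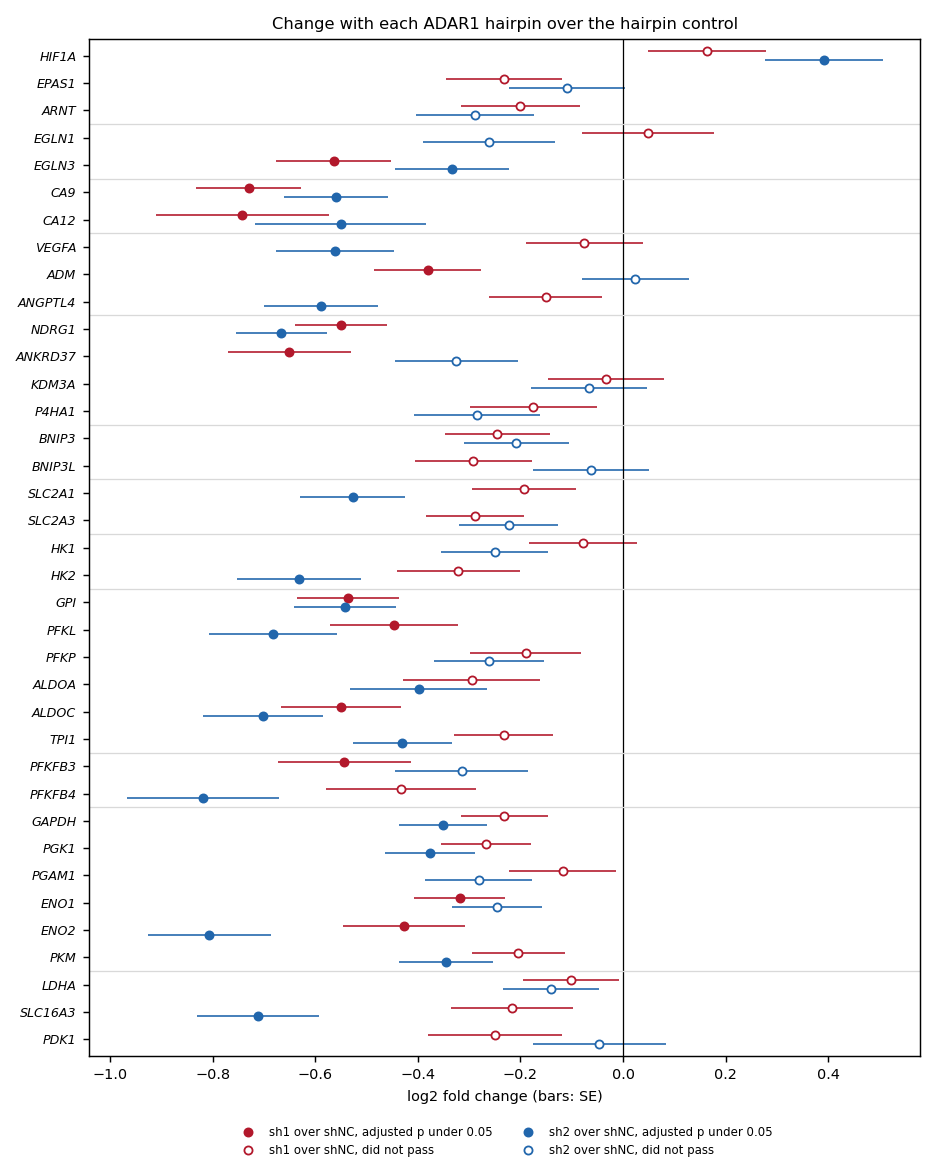
Log2 fold change of each member over shNC with sh1 (red) and sh2 (blue), with standard errors, where filled points passed at an adjusted p under 0.05. Most points lie left of 0 and none reaches a 2-fold difference, and HIF1A with sh2 is the filled point on the right.

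Of the 39 other hypoxia response genes tested with the hairpins, 12 fell and 0 rose for the mean of sh1 and sh2. Over all genes 5.98% were lower and 5.94% higher. The median of the list was log2 −0.16, against 0.00 over all genes. The largest changes were in PPFIA4, a liprin (log2 −0.82, SE 0.14), SLC2A14 (−0.71, SE 0.17), the histone demethylase KDM4B (−0.67, SE 0.13) and ARNT2, a relative of ARNT (−0.60, SE 0.12). Of 17 other glycolysis and lactate genes 2 fell, G6PC3 (log2 −0.40, SE 0.10) and BSG, the chaperone of lactate transporters (−0.34, SE 0.08).

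In the libraries labelled OVCAR3-DDP the members were mostly lower than in parental OVCAR3. Of the 37, 25 fell and 5 rose, against 35.2% of 23031 genes lower and 33.4% higher, with a median of log2 −0.83 against −0.03 over all genes. The marker levels given above differ in the same comparison, and their part in it cannot be told apart from the DDP label.

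CA9, SLC16A3 and CA12 had the largest log2 changes. In the libraries labelled OVCAR3-DDP, SLC16A3 had 7.32 and 7.17 CPM, against 439 and 465 CPM in parental OVCAR3 (log2 −6.14, SE 0.11). CA9 had 4 and 3 counts there, against 5021 and 5254 counts in parental cells (log2 −10.38, SE 0.27), and its SE is not reliable at so few counts. CA12 ran the other way, at 31.6 and 32.6 CPM against 0.892 and 1.08 CPM (log2 4.83, SE 0.19), with no overlap. LDHA fell to 465 and 461 CPM, against 1408 and 1321 CPM (log2 −1.74, SE 0.09).

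In the libraries labelled OVCAR3-DDP, HIF1A had 49.2 and 44.3 CPM, against 267 and 304 CPM in parental OVCAR3 (log2 −2.79, SE 0.10; edgeR adjusted p = 5.47e-11), the lowest HIF1A level of the 7 groups. EPAS1 had 74.8 and 74.4 CPM against 139 and 183 CPM (log2 −1.28, SE 0.12), while ARNT, at 84.6 and 84.0 CPM against 68.4 and 81.6 CPM, did not pass. The HIF1A libraries did not overlap between the groups, nor did those of EPAS1, but both genes passed, so the separation adds no support. Neither EGLN1 nor EGLN3 passed.

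The transporter SLC2A1 stood at 37.5 and 36.3 CPM under the OVCAR3-DDP label, against 124 and 129 CPM (log2 −1.95, SE 0.09), PGK1 354 and 368 CPM against 1197 and 1123 CPM (log2 −1.86, SE 0.09), and PKM 773 and 784 CPM against 2489 and 2316 CPM (log2 −1.80, SE 0.09). All 6 enzymes of lower glycolysis fell. P4HA1 had 27.5 and 29.3 CPM against 91.4 and 88.6 CPM (log2 −1.84, SE 0.11), and BNIP3, ANGPTL4, SLC2A3, GPI, PGAM1, VEGFA and PFKP fell by log2 1.00 to 1.92. Smaller decreases were seen in BNIP3L, ANKRD37, ENO1, NDRG1, PDK1, GAPDH, ENO2, TPI1 and HK2, and those of HK2 and TPI1 were lost with upper-quartile scaling (log2 −0.10 and −0.18) and without either library labelled OVCAR3-DDP. HK1, PFKL, ALDOA and ALDOC did not pass.

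The 5 members that rose were CA12, PFKFB3, ADM, PFKFB4 and KDM3A. PFKFB3 had 122 and 119 CPM under the OVCAR3-DDP label, against 25.7 and 26.7 CPM in parental OVCAR3 (log2 2.03, SE 0.10). ADM had 35.8 and 36.2 CPM, against 19.3 and 15.1 CPM in parental OVCAR3 (log2 0.89, SE 0.12). PFKFB4 and KDM3A rose by log2 0.63 (SE 0.12) and 0.42 (SE 0.09). The groups did not overlap in any of the 5, which were chosen because they passed, so the separation adds no support. Of 40 other hypoxia response genes 23 fell and 12 rose, against 35.2% of all genes lower and 33.4% higher. Among them the chemokine receptor CXCR4 was at log2 −5.24 (SE 0.20) and the nuclear receptor RORA at 4.04 (SE 0.36).

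In A2780 the members showed no common direction with the DDP label. Of the 37, 6 rose and 9 fell, against 18.0% of 23031 genes higher and 17.3% lower, and the median was log2 −0.07. The 14 glycolytic enzymes summed to 8829 and 8592 CPM in A2780-DDP, against 9506 and 9719 CPM in parental A2780. The epithelial and ovarian carcinoma markers summed to 306 and 278 CPM in A2780-DDP, against 198 and 205 CPM in parental A2780, so this line holds little of them under either label. The neuronal and HEK293-type markers summed to 338 and 392 CPM in A2780-DDP, against 163 and 162 CPM in parental A2780, and their part in these results was not tested.

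A few members changed strongly. ADM had 213 and 195 CPM in A2780-DDP, against 11.4 and 11 CPM in parental A2780 (log2 4.19, SE 0.13; edgeR adjusted p = 1.03e-10). ALDOC had 1.71 and 2.29 CPM against 50.5 and 52.7 CPM (log2 −4.68, SE 0.15; edgeR adjusted p = 7.80e-11). HK2 had 12.7 and 12.1 CPM against 63.9 and 60.4 CPM (log2 −2.32, SE 0.10; edgeR adjusted p = 1.84e-09), while HK1 had 179 and 203 CPM against 134 and 128 CPM (log2 0.55, SE 0.09). The groups were far apart in the first 3 genes and closer, without overlap, in HK1. These genes were chosen because they passed, so the separation adds no support.

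SLC16A3 rose, with 87.0 and 81.2 CPM in A2780-DDP against 47.1 and 49.7 CPM (log2 0.81, SE 0.09), as did KDM3A, with 79.4 and 86.6 CPM against 56.0 and 52.7 CPM (log2 0.62, SE 0.09), and PFKFB3, with 46.9 and 55.3 CPM against 37.5 and 33.4 CPM (log2 0.54, SE 0.10). VEGFA fell to 68.1 and 65.2 CPM in A2780-DDP, against 117 and 126 CPM (log2 −0.85, SE 0.11), and PKM to 1140 and 1179 CPM, against 1751 and 1773 CPM (log2 −0.59, SE 0.08). NDRG1, low throughout this line, fell to 2.81 and 2.74 CPM against 6.22 and 6.02 CPM (log2 −1.13, SE 0.13).

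The 5 other calls in A2780 were small and each was lost when 1 library was left out. They were CA12 at log2 −0.55 (SE 0.15), ENO2 at −0.42 (SE 0.11), P4HA1 at −0.36 (SE 0.10), SLC2A1 at −0.34 (SE 0.09) and PFKP at 0.32 (SE 0.10). CA12 stood at log2 −0.34 without A2780-DDP replicate 1, and P4HA1 at −0.18 without A2780-DDP replicate 2. Calls were also lost without A2780-DDP replicate 1 for ENO2 and SLC2A1, without A2780-DDP replicate 2 for PFKP, without parental replicate 1 for CA12, SLC2A1, P4HA1 and PFKP, and without parental replicate 2 for CA12, SLC2A1, ENO2 and P4HA1.

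The HIF subunits did not pass in A2780. HIF1A had 146 and 159 CPM in A2780-DDP against 179 and 184 CPM in parental cells (log2 −0.24, SE 0.10; edgeR adjusted p = 0.0673), EPAS1 5.10 and 4.76 CPM against 4.74 and 4.25 CPM (log2 0.14, SE 0.16; edgeR adjusted p = 0.527), and ARNT 126 and 157 CPM against 152 and 148 CPM. LDHA, at 792 and 760 CPM against 828 and 848 CPM, did not pass either (log2 −0.10, SE 0.08; edgeR adjusted p = 0.393). CA9 had 0 and 1 counts in A2780-DDP and 0 in both parental libraries, so no fold is given. The remaining 17 members, among them both mitophagy receptors, SLC2A3, GPI, TPI1, GAPDH, PGK1, PGAM1, ENO1 and PDK1, did not pass either, and EGLN3 lay under 1 CPM in all 4 libraries. Among 40 other hypoxia response genes 13 rose and 12 fell, against 18.0% of all genes higher and 17.3% lower. The lysyl oxidase LOXL2 was at log2 −5.51 (SE 0.13) and DDIT4, an inhibitor of mTORC1 signalling, at −3.14 (SE 0.10).

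**Figure D4:**
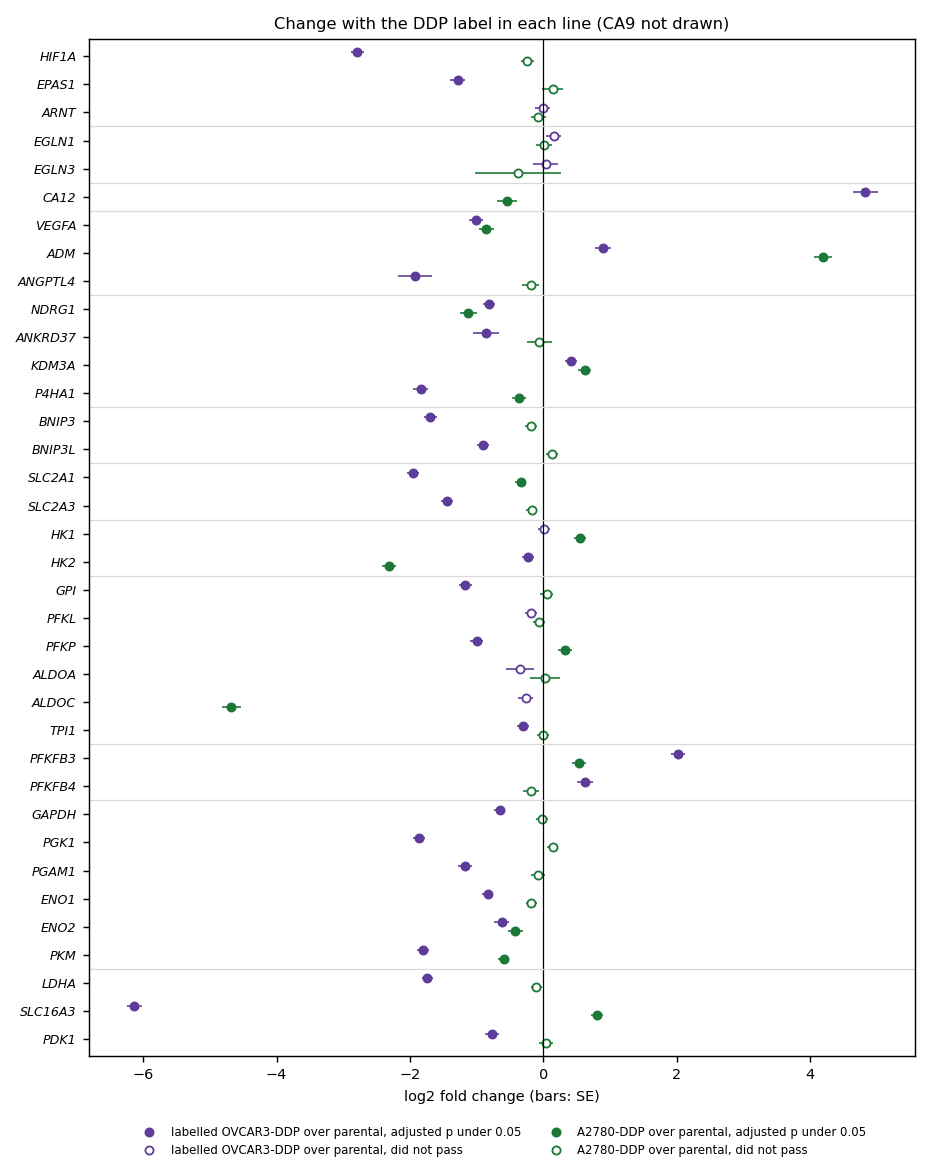
Log2 fold change of 36 members with the DDP label, in OVCAR3 (purple, libraries labelled OVCAR3-DDP over parental) and A2780 (green, A2780-DDP over parental), with standard errors and filled points for an adjusted p under 0.05. CA9 is not drawn because 3 of the 4 groups hold at most 7 counts. The purple points spread mainly to the left of 0, and most green points lie near 0, with ADM far to the right and ALDOC far to the left.

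The change differed between the lines for 27 members by the interaction test, 22 with a lower and 5 with a higher value in OVCAR3, against 26.9% of genes each way. SLC16A3 differed most among well-counted genes, by log2 −6.95 (SE 0.14; edgeR adjusted p = 2.42e-12). The 5 positive differences were CA12, ALDOC, HK2, PFKFB3 and PFKFB4. ADM rose in both lines but by more in A2780, a difference of log2 −3.30 (SE 0.17; edgeR adjusted p = 4.41e-09). For NDRG1, VEGFA, KDM3A and ENO2, which passed in the same direction in both lines, the interaction did not pass. The call for ANKRD37 was lost with DESeq2 and in several leave-one-out fits (edgeR adjusted p up to 0.124). The CA9 difference, log2 −12.79, is a fitted value set by the prior count and its call was lost without A2780-DDP replicate 2 (edgeR adjusted p = 1).

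The parental lines also differed from each other. OVCAR3 was higher than A2780 for 22 members and lower for 11, against 32.3% and 33.7% of genes, with a median of log2 0.31. CA9 had 5021 and 5254 counts in parental OVCAR3 and none in parental A2780, which makes it at least 2576-fold higher, taking 3 counts in the 2 A2780 libraries together as the floor. EGLN3 had 13.2 and 11 CPM in parental OVCAR3 against 0.224 and 0.0917 CPM in parental A2780 (log2 6.29, SE 0.32), and NDRG1 131 and 141 CPM against 6.22 and 6.02 CPM (log2 4.52, SE 0.11). EPAS1 had 139 and 183 CPM against 4.74 and 4.25 CPM (log2 5.21, SE 0.15), and the 4 A2780 libraries had the lowest EPAS1 levels of all 14. SLC16A3 (log2 3.27, SE 0.10), SLC2A1 (1.60, SE 0.09), PGK1 (1.58, SE 0.09) and GPI (1.04, SE 0.10) were also higher in OVCAR3. HIF1A, at 267 and 304 CPM in parental OVCAR3 against 179 and 184 CPM in parental A2780, was higher by log2 0.70 (SE 0.10), and 13 further members were higher by log2 0.26 to 0.98. Of these, VEGFA, P4HA1, BNIP3L, PFKL and PDK1 each lost the call when a single parental library was left out: A2780 replicate 1 for all but PDK1, A2780 replicate 2 for all 5, OVCAR3 replicate 1 for P4HA1 and PFKL, and OVCAR3 replicate 2 for VEGFA, which then stood at log2 0.11. EGLN1, BNIP3, TPI1 and PFKFB4 did not pass.

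Other members were lower in parental OVCAR3 than in parental A2780. ANGPTL4 had 2.51 and 2.02 CPM in parental OVCAR3 against 71.8 and 75.4 CPM in parental A2780 (log2 −4.99, SE 0.17), CA12 0.892 and 1.08 CPM against 15.1 and 14.1 CPM (log2 −3.82, SE 0.19), and SLC2A3 42.3 and 42.4 CPM against 231 and 215 CPM (log2 −2.35, SE 0.09). ARNT (log2 −0.95, SE 0.11), ENO2 (−0.95, SE 0.11), ALDOC (−0.74, SE 0.11), ANKRD37 (−0.69, SE 0.18) and PGAM1 (−0.60, SE 0.10) were lower in OVCAR3 by less, as were KDM3A, PFKFB3 and GAPDH by log2 0.22 to 0.50, and calls in this direction were lost without parental A2780 replicate 2 for ANKRD37 and GAPDH, without parental A2780 replicate 1 for PFKFB3 and GAPDH, and without parental OVCAR3 replicate 2 for GAPDH. GAPDH also lost its call under other settings, DESeq2 among them (log2 −0.18). Per kilobase of exon, CA9 exceeded CA12 and SLC2A1 exceeded SLC2A3 in parental OVCAR3, and the order of both pairs was the opposite in parental A2780.

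Shares within gene pairs, computed per kilobase of exon, extend this to all groups. HK2 made up 63.3% of HK1 and HK2 together in sh1, 61.3% in sh2 and 67.3% in shNC, against 28.7% in the libraries labelled OVCAR3-DDP and 32.3% in parental OVCAR3, and it was 6.33% in A2780-DDP against 33.0% in parental A2780 (means of 2 libraries, SD 0.0592 to 3.11 percentage points). The share of HK2 thus stood highest in the hairpin libraries and lowest in A2780-DDP, with no overlap between either and the other groups. SLC2A3 made up 38.8% of the transporter pair in shNC and 20.4% in parental OVCAR3, but 81.7% in A2780-DDP and 79.8% in parental A2780. EGLN3 made up 76.1% of the hydroxylase pair in shNC and 27.0% in parental OVCAR3, and under 1% in every A2780 library. EPAS1 held 53.0% of the HIF alpha pair in the libraries labelled OVCAR3-DDP against 28.3% in parental OVCAR3, although both subunits were lower there. CA12 held 98.6% of the carbonic anhydrase pair in the libraries labelled OVCAR3-DDP, against 0.188% in parental OVCAR3 and 0.593% in shNC. Its share was also high in A2780, at 100% in parental A2780 and 99.4% in A2780-DDP. CA9 had at most 4 counts in any library of these 2 groups and of OVCAR3-DDP, so these high shares reflect nearly absent CA9.

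**Figure D5:**
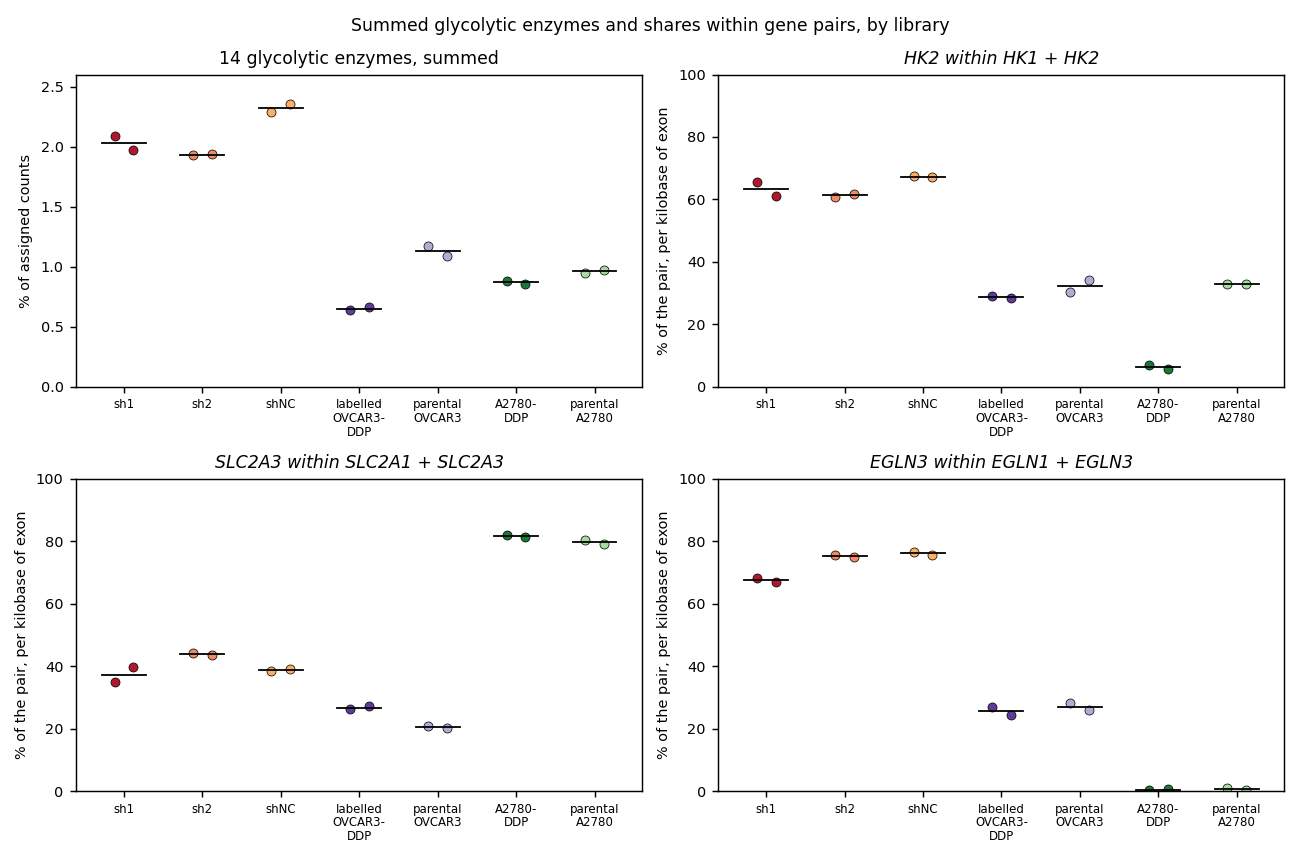
Summed level of the 14 glycolytic enzymes as a percentage of assigned counts, and the share of HK2, SLC2A3 and EGLN3 within their gene pairs per kilobase of exon, for each library (points) and group mean (line). The hairpin libraries stand highest for the sum and for the HK2 and EGLN3 shares, and the A2780 libraries for the SLC2A3 share.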

How the data were processed

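The data are raw read counts per gene, deposited by the authors as 1 HTSeq file per library with 62757 genes and 5 summary lines. Per the submitters' processing notes, the tools were FastQC 0.11.9, STAR 2.7.8a, SAMtools and HTSeq 2.0.3 with build GRCh38.p13. Strand setting, read layout and annotation release: not given in the sources used here. Coordinates and exon lengths came from GENCODE 29, which held 58274 of the genes, and 21 of the 37 members share some exon bases with another gene. Reads on no feature were 48.7% to 50.0% and stayed out of library sizes.

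CPM are counts per 1000000 assigned. Tests used edgeR 4.0.16 in R 4.3.3 (quasi-likelihood F-test, TMM, filterByExpr with a minimum count of 10, Benjamini-Hochberg adjustment at 0.05) in 3 fits: 8 parental and DDP libraries (23031 genes, 4 residual degrees of freedom), 6 hairpin libraries (19044 genes, 3) and all 14 (24193 genes, 7) for shNC against parental OVCAR3. The script was tested on simulated data. Levels are CPM without TMM, so a small fold change can differ in sign from the ratio of levels. Differences between hairpins and between lines were tested as contrasts, and alternatives were other scalings, filters, libraries in the fit, DESeq2 1.42.0, leaving out single libraries, and a replicate block. Replicates of a group differed beyond sampling noise (chi-square per gene 3.88 to 31.5). Each SE is the absolute log2 fold change divided by the square root of the F statistic. It is not reliable where a group has few counts. Examples are CA9 in the libraries labelled OVCAR3-DDP, EGLN3 in A2780 and SLC2A14 in parental OVCAR3. Floors cover counting error only, and promoters were searched on both strands by exact match. Figures were drawn with matplotlib 3.10.9.

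The members and gene lists were chosen with earlier results of these data known. Genes named with values are the HIF subunits, up to 8 passing members in each direction per comparison with the largest change and at least 10 CPM in the higher group, up to 4 passing genes of each other list, and ADAR. Other members named, such as LDHA, account for the rest of the list. Of the other lists, part of the genes so chosen is printed, and TFRC, VHL and LDHB were chosen after their values were seen.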

Additional observations from a re-analysis of the deposited data

Results flagged for a closer look

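The change with the DDP label, libraries labelled OVCAR3-DDP over parental OVCAR3 minus A2780-DDP over parental A2780, differed between the lines for 27 members by the interaction test in edgeR at an adjusted p under 0.05. In log2 units the difference among the HIF subunits was −2.55 for HIF1A and −1.43 for EPAS1. Among the targets it was −12.79 for CA9, 5.38 for CA12, −3.30 for ADM, −1.73 for ANGPTL4, −0.81 for ANKRD37, −1.48 for P4HA1, −1.51 for BNIP3 and −1.03 for BNIP3L. In glucose uptake and upper glycolysis it was −1.61 for SLC2A1, −1.28 for SLC2A3, −0.55 for HK1, 2.09 for HK2, −1.22 for GPI, −1.32 for PFKP, 4.42 for ALDOC, 1.49 for PFKFB3 and 0.82 for PFKFB4. In lower glycolysis and lactate handling it was −0.63 for GAPDH, −2.0 for PGK1, −1.09 for PGAM1, −0.66 for ENO1, −1.21 for PKM, −1.64 for LDHA, −6.95 for SLC16A3 and −0.80 for PDK1. The ANKRD37 call was lost with the DESeq2 Wald test and without either library labelled OVCAR3-DDP, A2780-DDP replicate 1 or parental A2780 replicate 1. The CA9 value depends on the prior count, since parental A2780 had 0 counts. Most epithelial and ovarian carcinoma markers were lower in the libraries labelled OVCAR3-DDP than in their parental line. That difference cannot be told apart from the DDP label.

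The change against shNC also differed between the hairpins for 4 members, by log2 −0.49 for VEGFA, 0.40 for ADM, −0.44 for ANGPTL4 and −0.49 for SLC16A3 (sh2 minus sh1), in the direct comparison of sh2 with sh1. All 4 calls were lost without sh2 replicate 1, without sh2 replicate 2, and in the fit of the compared groups alone.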

How the results depend on the processing

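Values of single members were tallied where the member passed in the fits described above, and for a few named ones that did not. Among their alternative values, 2353 kept direction and side of the threshold and 192 kept direction but no longer passed. Another 8 newly passed and 0 changed direction. New passes and changes of direction among the other members are not in these numbers. With a fold change of at least 2 also required, members called numbered 17 (OVCAR3, libraries labelled DDP over parental), 4 (A2780), 11 (parental OVCAR3 over A2780) and 0 for the mean of the hairpins, sh1, sh2 and sh2 over sh1. All genes called were then 10055 (15784 without the fold), 3507 (8123), 9464 (15203), 150 (2270), 83 (725), 266 (2717) and 55 (365), and 6682 (12463) for shNC over parental OVCAR3. With a mean of at least 5 CPM the calls over all genes were 10267 for OVCAR3 and 9989 for the parental lines, where fewer genes were tested. Fits of the compared groups alone gave 445 genes for sh1, 31 members and 5874 genes for sh2, and 0 members and 192 genes for sh2 over sh1. For sh2 over sh1, no filter gave 690 genes, DESeq2 624 genes, and a fit of all 14 libraries 2 members. The cause of these changes was not tested.

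Leaving out 1 library at a time, with a lone sample assumed to vary like the other groups, gave 8 to 31 members and 327 to 6318 genes for the mean of the hairpins, 3 to 26 and 89 to 4512 for sh1, 4 to 16 and 303 to 1386 for sh2, and 0 to 18 and 58 to 4286 for sh2 over sh1. The ranges were 28 to 31 members for OVCAR3, 11 to 13 for A2780, 26 to 28 for their difference, 26 to 32 for the parental lines and 35 to 36 for shNC over parental OVCAR3.

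Same-numbered libraries did not deviate together (correlations of −0.310 to 0.054 over 13044 genes). With the replicate block, members called were 30 for OVCAR3, 15 for A2780, 27 for their difference, 33 for the parental lines, 21 for the mean of the hairpins, 10 for sh1, 18 for sh2, 3 for sh2 over sh1 and 36 for shNC over parental OVCAR3. With 2 libraries a group, CA9 and EGLN3 in A2780 were near the counting floor.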
